A study of Homo sapiens with 6 samples.

Results

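The miRNAs described here come from 3 hairpins on the minus strand of the short arm of human chromosome 17, MIR22, MIR132 and MIR212. The members are both arms of each hairpin, hsa-miR-22-3p, hsa-miR-22-5p, hsa-miR-132-3p, hsa-miR-132-5p, hsa-miR-212-3p and hsa-miR-212-5p. They were picked by name, and all 6 were found among the 2588 miRNA names counted in each library. The list was drawn up when ratios of treated to untreated libraries were already known, so the values below are a description and no test is attached to them.

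The cells were A549, derived from an adenocarcinoma of the human lung, and BEAS-2B, bronchial epithelial cells immortalised with a virus, both labelled as wild type, and their small RNA was sequenced. Each line was left untreated or was treated with TGF-β1 at 1 or 5 ng/mL for 48 h, per the labels in RPMI medium with less serum than was used for growth. Whether the untreated cultures had the same serum is not given here. If they did not, serum and TGF-β1 cannot be told apart. TGF-β1, a cytokine under which epithelial cells take on mesenchymal features and lay down matrix, was used by the study to model pulmonary fibrosis. There were 6 groups with 1 library each, so no value has a replicate error, and whether a difference exceeds the variation between cultures is unknown.

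A miRNA hairpin is cut into a 5p and a 3p arm, one of which is usually kept in the silencing complex, where its seed (bases 2 to 8 from the 5′ end) pairs with target mRNAs. miR-22 is processed from the long non-coding RNA MIR22HG. It is known for effects on cell growth and senescence. miR-132 and miR-212 form a cluster that is known from neurons, where the transcription factor CREB switches it on after stimulation.

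In GRCh38 with GENCODE release 29, the MIR22 hairpin lies at chr17:1713903-1713987, and it falls inside an exon of all 19 annotated MIR22HG transcripts that span it. MIR132 lies at chr17:2049908-2050008 and MIR212 at chr17:2050271-2050380, with 262 bases between them and no other annotated gene over either. The nearest protein-coding genes to this pair are DPH1 and HIC1, whereas MIR22 lies between TLCD2 and WDR81. MIR22 is 335.92 kb from MIR132, so miR-22 is a neighbour of the cluster and not a part of it.

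The mature sequences of all 6 members were matched by name in RefSeq (GRCh38.p14). They are shown because the arms carry different seeds while the cluster repeats one of them. They are written 5′ to 3′ with the seed in capitals.
hsa-miR-22-3p: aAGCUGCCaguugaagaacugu
hsa-miR-22-5p: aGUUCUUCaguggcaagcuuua
hsa-miR-132-3p: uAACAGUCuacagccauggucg
hsa-miR-212-3p: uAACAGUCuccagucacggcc
hsa-miR-132-5p: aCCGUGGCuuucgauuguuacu
hsa-miR-212-5p: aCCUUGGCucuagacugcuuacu
The 3p arms of miR-132 and miR-212 share the seed AACAGUC, and no other miRNA in the table has it. No other listed miRNA shares the seed of either arm of miR-22 or of the 5p arms of miR-132 and miR-212. Counted from the 5′ end with the miR-132 base first, the 3p arms of the cluster are alike over the first 9 bases and differ at 4 of 21 positions, A10C, C14U, U17C and U20C. The 5p arms differ at 8 of 22 positions, the first of which, G4U, lies within the seed.

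Total counts lay between 633318 and 900424 per library. hsa-miR-21-5p took 47.6% to 56.8% of the A549 libraries and 53.3% to 57.2% of the treated BEAS-2B libraries, but 35.4% of the untreated BEAS-2B library. Counts were scaled by the trimmed mean of M-values (TMM), whose factor was 1.32 for the untreated BEAS-2B library and 0.829 to 1.02 for the others. The normalised data value (ND) is log2 of the scaled count plus 1. The study's thresholds were applied, an ND of 8 or more, which is a normalised count of 255, and a fold change of at least 1.4. The ND had to be reached in the higher of the compared libraries, a choice made here. Intervals are exact 95% intervals and cover counting error only. Only miRNAs were counted, so the lines could not be checked by their mRNA markers. The epithelial miRNA hsa-miR-200b-3p had raw counts of 139 to 356 in every library. As a single miRNA it is no check of the lines, and other epithelial miRNAs were not examined here. In a bulk library, fewer cells with a miRNA cannot be told apart from less of it per cell.

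The 3 hairpins differed widely in abundance. Over all 6 libraries, 19386 reads were counted for miR-22, 543 for miR-132 and 34 for miR-212. hsa-miR-22-3p ranked between 25 and 42 among all miRNAs of a library, hsa-miR-22-5p between 35 and 86, and hsa-miR-132-3p between 201 and 260. Both arms of miR-22 had an ND above 8 in every library, and no arm of miR-132 or miR-212 reached 8 in any. Levels of different miRNAs also depend on how well each one is ligated and amplified, which these counts cannot correct.

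**Figure D1:**
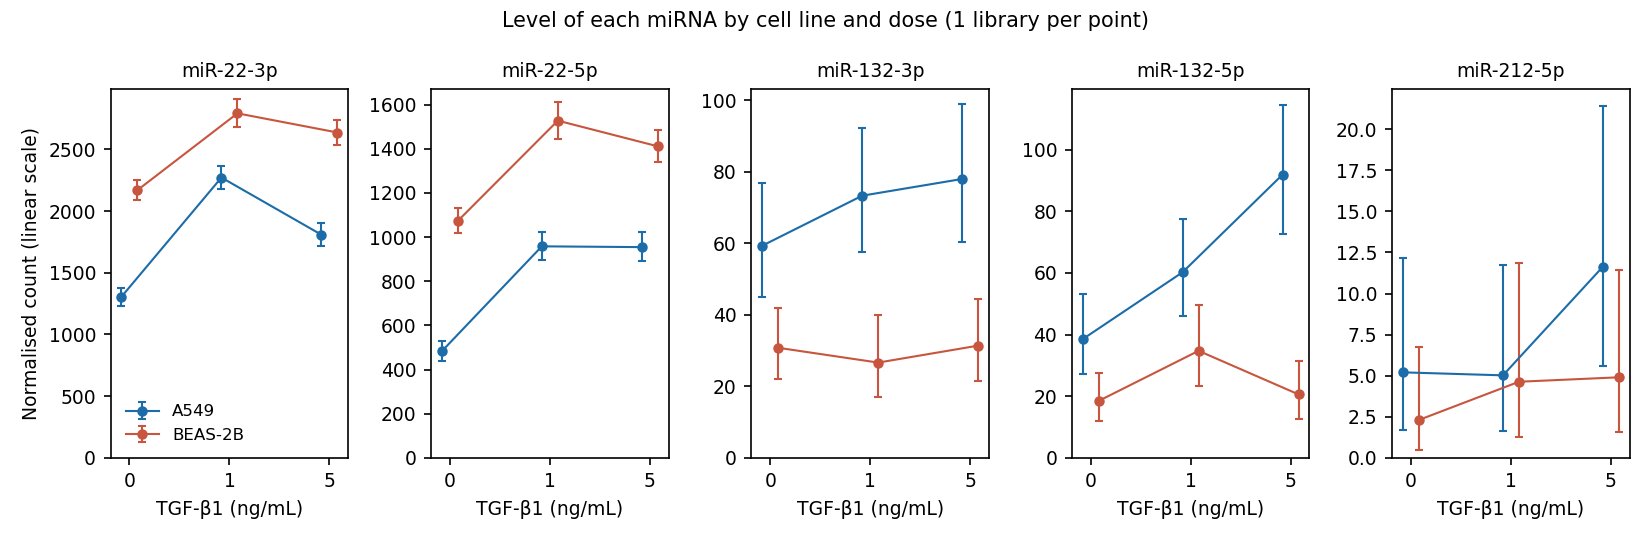
TMM-normalised count (linear axes that differ between panels) of 5 of the miRNAs against TGF-β1 dose, with 1 library per point and bars for the exact 95% Poisson interval. miR-22-3p and miR-22-5p lie higher in BEAS-2B than in A549 cells at each dose, and miR-132-3p and miR-132-5p lie lower. hsa-miR-212-3p is not drawn because it has 0 or 1 counts in each library.

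hsa-miR-22-3p is the more abundant arm of miR-22 and the one usually studied. The A549 libraries held 1255 reads of it without treatment, 2263 at 1 ng/mL and 1554 at 5 ng/mL. These were normalised counts of 1306 (95% interval 1235 to 1380), 2272 (2180 to 2368) and 1808 (1720 to 1901). Both treated libraries lay above the untreated one beyond counting error, and the 1 ng/mL library lay highest, although with total-count scaling the treated libraries differed by less than counting error. The log2 ratio to the untreated library was 0.80 (0.70 to 0.90) at 1 ng/mL, past the criteria. It was 0.47 (0.36 to 0.58) at 5 ng/mL, a fold change of 1.38 and so just short of 1.4, and with scaling by total count it was 0.63 and passed.

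hsa-miR-22-5p, the partner arm, approximately doubled in A549 cells. Its count was 464, 954 and 820 at 0, 1 and 5 ng/mL, and its normalised count was 483 (440 to 529), 958 (898 to 1021) and 954 (890 to 1022). The treated libraries did not differ from each other beyond counting error with TMM (log2 ratio -0.0054, between -0.22 and 0.29 under the alternatives), and both lay far above the untreated library. The log2 ratio to the untreated library was 0.99 (0.83 to 1.15) at 1 ng/mL and, at 5 ng/mL, 0.98 (0.82 to 1.15), and both passed the criteria.

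Among the 137 miRNAs that met the ND criterion in A549 cells at 1 ng/mL, 48.9% were past the criteria and 27.0% were past them and higher, and both arms of miR-22 were among them. At 5 ng/mL the shares were 53.2% and 27.0% of 141 miRNAs, and 1 arm was among them. The arms were thus not rare cases: hsa-miR-22-5p ranked 20 of 137 and 27 of 141 from the highest log2 ratio, and hsa-miR-22-3p ranked 26 and 39. The median log2 ratio of these miRNAs was -0.11 at 1 ng/mL and -0.03 at 5 ng/mL. Across 10 other scalings and pseudocounts the log2 ratios stayed above 0, from 0.53 to 0.85 at 1 ng/mL and from 0.10 to 0.63 at 5 ng/mL for hsa-miR-22-3p. For hsa-miR-22-5p they ran from 0.72 to 1.04 and from 0.61 to 1.14, and passed the criteria each time.

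In BEAS-2B cells the counts of miR-22 moved less, and their direction depended on the scaling. The count of hsa-miR-22-3p was 2821 in the untreated library, 2412 at 1 ng/mL and 2690 at 5 ng/mL, which gave normalised counts of 2170 (2091 to 2252), 2793 (2682 to 2906) and 2637 (2538 to 2739). The untreated library had the highest raw count and the lowest normalised count. With TMM the log2 ratio was, at 1 ng/mL, 0.36 (0.28 to 0.44) and, at 5 ng/mL, 0.28 (0.20 to 0.36), short of 1.4-fold, but with scaling by total count it was negative, -0.06 and -0.13, as it was with no scaling (-0.23 and -0.07).

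The partner arm hsa-miR-22-5p had counts of 1395, 1319 and 1439 in BEAS-2B cells, and normalised counts of 1073 (1018 to 1131), 1527 (1446 to 1612) and 1411 (1339 to 1486). Its log2 ratio with TMM was 0.51 (0.40 to 0.62) at 1 ng/mL, a fold change of 1.42 just past the criteria, and 0.39 (0.29 to 0.50) at 5 ng/mL. With scaling by total count the ratios were 0.08 and -0.02, with intervals that include 0. Of the members, only the arms of miR-22 met the ND criterion and could pass. Of the 120 miRNAs compared at 1 ng/mL, 29.2% were past the criteria and 15.8% were past them and higher, as was hsa-miR-22-5p. Of the 125 at 5 ng/mL, 36.0% were past the criteria in either direction, and neither arm of miR-22 was. The change to total-count scaling shifted each log2 ratio of the BEAS-2B line by -0.43 (1 ng/mL) or -0.41 (5 ng/mL), and those of the A549 line by -0.14 or 0.16. The untreated BEAS-2B library had a low share of hsa-miR-21-5p, given above, and whether this bears on the shift was not tested. With hsa-miR-21-5p left out of the total, the log2 ratios at 5 ng/mL were 0.46 for hsa-miR-22-3p and 0.58 for hsa-miR-22-5p. With TMM on miRNAs with a mean count of at least 10, they were -0.01 and 0.10.

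**Figure D2:**
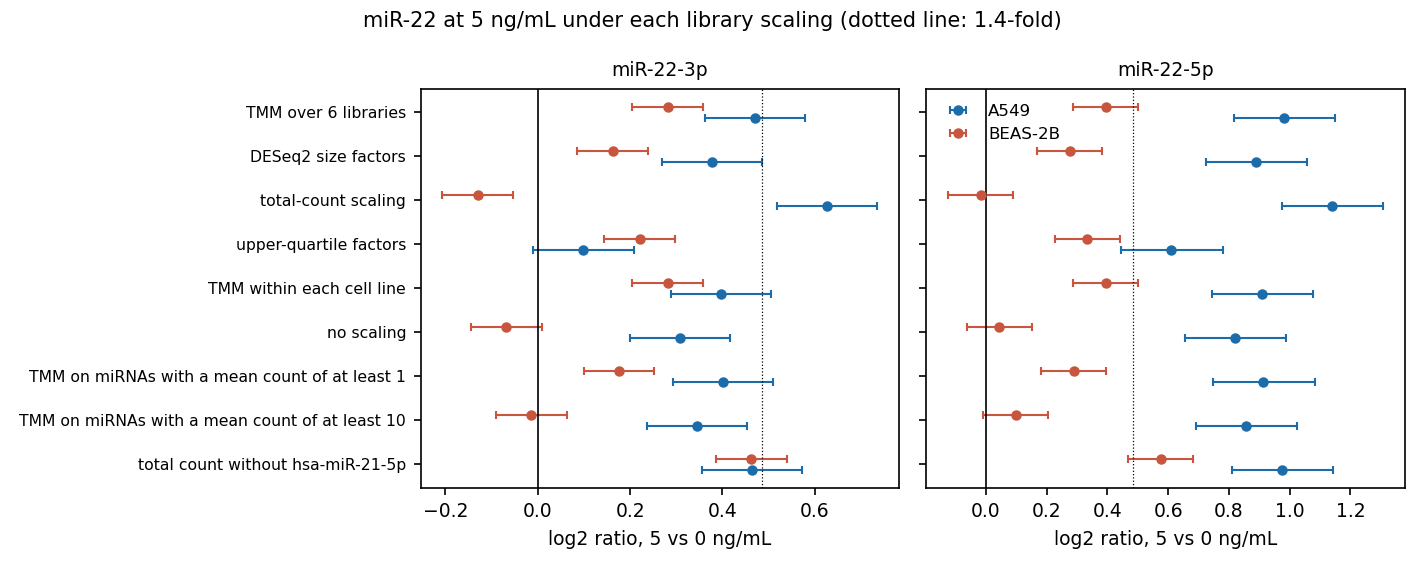
log2 ratio of hsa-miR-22-3p and hsa-miR-22-5p at 5 ng/mL against the untreated library (x axis) under 9 ways of scaling the libraries (y axis), with exact 95% counting intervals. The A549 values lie above 0 under each scaling, although the interval of hsa-miR-22-3p reaches below 0 with upper-quartile factors. The BEAS-2B values of hsa-miR-22-3p run from -0.13 to 0.46 and those of hsa-miR-22-5p from -0.02 to 0.58.

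The order of the levels over the libraries was nearly the same for both arms of miR-22. For hsa-miR-22-3p it ran from untreated A549 cells through A549 cells at 5 ng/mL, untreated BEAS-2B cells, A549 cells at 1 ng/mL and BEAS-2B cells at 5 ng/mL to BEAS-2B cells at 1 ng/mL. Of these neighbours, untreated BEAS-2B cells and A549 cells at 1 ng/mL did not differ beyond counting error (log2 ratio 0.07, interval -0.01 to 0.15). For hsa-miR-22-5p all A549 libraries lay below all BEAS-2B libraries, and the treated A549 libraries were the neighbours that did not differ. With 7 other scalings over all libraries, every A549 library lay below every BEAS-2B library for both arms. The nearest pair across the lines for hsa-miR-22-5p was A549 cells at 1 ng/mL and untreated BEAS-2B cells, which differed by a log2 ratio of 0.16 (0.04 to 0.28).

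Untreated A549 cells had less miR-22 than untreated BEAS-2B cells. The log2 ratio of A549 to BEAS-2B was -0.73 (-0.83 to -0.64) for hsa-miR-22-3p and -1.15 (-1.31 to -1.0) for hsa-miR-22-5p, which are ratios of 0.602 and 0.450. Both passed the criteria, as did 68.9% of 135 miRNAs in either direction and 28.1% in this one, and the values stayed between -1.27 and -0.71 and between -1.69 and -1.13 under 9 alternatives. At matched doses in treated cells the difference was -0.30 (-0.38 to -0.21) at 1 ng/mL and, at 5 ng/mL, -0.54 (-0.64 to -0.45) for hsa-miR-22-3p, and -0.67 (-0.79 to -0.55) and -0.56 (-0.69 to -0.44) for hsa-miR-22-5p. The response of A549 minus that of BEAS-2B cells was 0.43 and 0.19 on the log2 scale at 1 and 5 ng/mL for hsa-miR-22-3p and 0.48 and 0.59 for hsa-miR-22-5p. Of these, the value of hsa-miR-22-3p at 5 ng/mL changed sign with upper-quartile factors, to -0.12, and the others were above 0 under 8 other scalings. With 1 library per group, this difference between the lines was not tested.

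miR-132 showed the opposite order of the cell lines. hsa-miR-132-3p, the arm usually studied in neurons, had counts of 57, 73 and 67 in A549 cells at 0, 1 and 5 ng/mL. In BEAS-2B cells the counts were 40, 23 and 32. Its normalised counts were 59.3, 73.3 and 78.0 in A549 cells and 30.8, 26.6 and 31.4 in BEAS-2B cells. Every A549 library lay above every BEAS-2B library, also with 7 other scalings, and the same held for hsa-miR-132-5p, although its nearest pair, A549 cells without treatment and BEAS-2B cells at 1 ng/mL, differed by less than counting error (log2 ratio 0.14, interval -0.59 to 0.89). Between the untreated lines the log2 ratio of A549 to BEAS-2B was 0.92 (0.34 to 1.57), and at 1 and 5 ng/mL it was 1.43 (0.77 to 2.20) and 1.29 (0.69 to 1.97). The untreated value lay between 0.40 and 0.95 under the 9 alternatives, and its interval lay above 0 in 7 of them. Among the 135 miRNAs that met the ND criterion between the untreated lines, the median log2 ratio was 0.27 with TMM. A higher level in A549 cells was thus the commoner direction among them. For miRNAs under the criterion, such as miR-132, the share that was higher was not computed.

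No change of hsa-miR-132-3p with treatment exceeded its counting error with TMM. The log2 ratios to the untreated library were 0.30 (-0.21 to 0.83) at 1 ng/mL and, at 5 ng/mL, 0.39 (-0.14 to 0.93) in A549 cells. In BEAS-2B cells they were -0.20 (-1.02 to 0.57) and 0.03 (-0.69 to 0.74), and the sign of the last value flipped under 6 of 10 alternatives. Differences within these intervals were not detectable at this depth.

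hsa-miR-132-5p, the partner arm, had counts of 37, 60 and 79 in A549 cells at 0, 1 and 5 ng/mL, or normalised counts of 38.5 (27.1 to 53.1), 60.2 (46.0 to 77.5) and 91.9 (72.8 to 115). The 3 libraries lay in the order of the dose. The log2 ratio to the untreated library was 0.63 (0.03 to 1.28) at 1 ng/mL and, at 5 ng/mL, 1.23 (0.68 to 1.86), and that of 5 to 1 ng/mL was 0.60 (0.11 to 1.12). All levels lay under the ND criterion, so the miRNA could not pass it. Under the 10 alternatives the value at 5 ng/mL lay between 0.87 and 1.39 with an interval above 0 in each, whereas at 1 ng/mL the interval lay above 0 in 4.

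For comparison, 249 miRNAs had an ND under 8 and at least 20 counts in the untreated and 5 ng/mL libraries of A549 cells together, a minimum chosen after the values were seen. Of these, 38.2% were higher by 1.4-fold or more at 5 ng/mL, as hsa-miR-132-5p was. Its own fold change was 2.35, and the share of these miRNAs that reached that value was not computed. The share was 29.5% of 254 at 1 ng/mL in A549 cells, and for the BEAS-2B line it was 25.2% of 270 at 1 ng/mL and 27.4% of 274 at 5 ng/mL. The 3 BEAS-2B libraries held 24, 30 and 21 reads of hsa-miR-132-5p, with log2 ratios of 0.88 (0.09 to 1.75) at 1 ng/mL and, at 5 ng/mL, 0.15 (-0.76 to 1.06). The latter changed sign under 3 of 10 alternatives. The BEAS-2B libraries did not lie in the order of the dose.

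hsa-miR-212-3p, which shares its seed with hsa-miR-132-3p, was hardly counted. It had 1 read in each treated A549 library and 0 in the other 4 libraries. Taken as 3 counts of the total, the limit that a count of 0 allows was a share of 0.000380% of the untreated A549 library and 0.000391% to 0.000457% of the BEAS-2B libraries. hsa-miR-212-5p had 5, 5 and 10 reads at 0, 1 and 5 ng/mL in A549 cells and 3, 4 and 5 in the BEAS-2B line. Its log2 ratio at 5 ng/mL was 1.03 (-0.52 to 3.06) in A549 cells and 0.84 (-1.27 to 3.77) in BEAS-2B cells, so no change was detectable at this depth. Of all reads of the cluster, miR-212 made up 5.57% (3.52 to 8.31) in the A549 libraries and 6.59% (3.45 to 11.2) in the BEAS-2B libraries. For the seed AACAGUC, the A549 libraries together held 197 reads of hsa-miR-132-3p and 2 of hsa-miR-212-3p, and the BEAS-2B libraries 95 and 0.

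**Figure D3:**
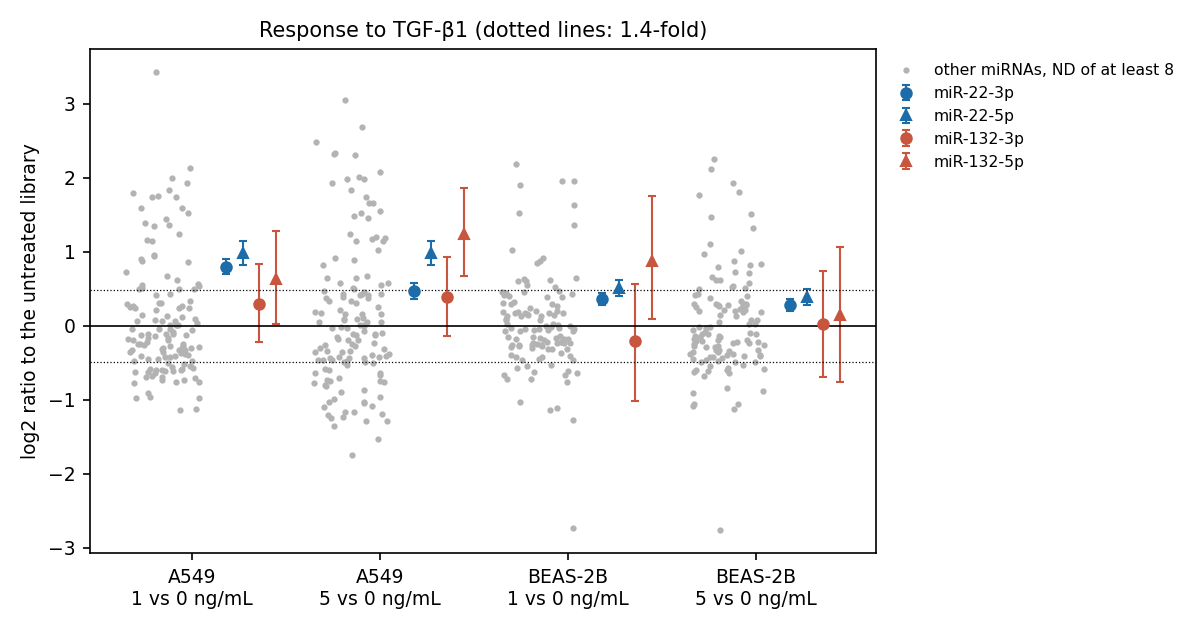
log2 ratio of treated to untreated library (y axis) in each cell line and dose with TMM scaling, for the other miRNAs with an ND of at least 8 (grey), the arms of miR-22 (blue) and the arms of miR-132 (red, under the ND criterion), with exact 95% counting intervals and dotted lines at 1.4-fold. Both arms of miR-22 lie above 0 in each comparison with this scaling, those in BEAS-2B cells not under all scalings, and they lie within the range of the grey points.

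Shares of arms compare counts within 1 library, so no scaling enters them. hsa-miR-22-3p made up 73.0% (70.8 to 75.1) of the miR-22 reads in untreated A549 cells, 70.3% (68.7 to 71.9) at 1 ng/mL and, at 5 ng/mL, 65.5% (63.5 to 67.4). The BEAS-2B libraries gave 66.9% (65.5 to 68.3), 64.6% (63.1 to 66.2) and 65.1% (63.7 to 66.6). The untreated A549 library stood highest, and the A549 library at 5 ng/mL lay among the BEAS-2B values.

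The log2 odds ratio of the 3p to the 5p arm of miR-22 between treated and untreated A549 cells was -0.51 (-0.71 to -0.31) at 5 ng/mL and, at 1 ng/mL, -0.19 (-0.38 to 0.0018). Between 5 and 1 ng/mL it was -0.32 (-0.49 to -0.16). For the BEAS-2B line it was -0.11 (-0.25 to 0.02) at 5 ng/mL and, at 1 ng/mL, -0.15 (-0.28 to -0.0096). The 4 comparisons with the untreated library all had the same sign, but those of 1 line share that library. Among 27 hairpins with at least 50 reads of each arm in every library, a minimum chosen after the values were seen, the 3p share in A549 cells at 5 ng/mL moved by between -12.7 and 21.7 percentage points with a median of -0.018. miR-22 moved by -7.55 points, and 2 hairpins moved further in this direction when counted in points. Shares close to either end of the scale move by few points even when the odds change much. One such hairpin was hsa-miR-27a, whose share went from 98.7% to 94.2%. Low shares also fell for hsa-miR-31 (8.79% to 5.71%) and hsa-let-7a (2.12% to 1.36%), and rose for hsa-miR-30a (8.98% to 18.6%). The place of miR-22 among the hairpins on the odds scale was not computed, and the count of 2 holds for points alone. In BEAS-2B cells at 5 ng/mL miR-22 moved by -1.76 points, and 7 hairpins lay below it.

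The arms of miR-132 were compared in the same way, from fewer reads. hsa-miR-132-3p made up 60.6% (50.02 to 70.6) of the miR-132 reads in untreated A549 cells, 54.9% (46.0 to 63.5) at 1 ng/mL and, at 5 ng/mL, 45.9% (37.6 to 54.3). The log2 odds ratio of 5 ng/mL to untreated was -0.86 (-1.67 to -0.05), and that of 1 ng/mL was -0.34 (-1.17 to 0.48). In BEAS-2B cells the share was 62.5% (49.5 to 74.3), 43.4% (29.8 to 57.7) and 60.4% (46.0 to 73.5), lowest at 1 ng/mL. Its log2 odds ratio to untreated was -1.11 (-2.29 to 0.04) at 1 ng/mL and, at 5 ng/mL, -0.13 (-1.30 to 1.05), and both intervals include 0.

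**Figure D4:**
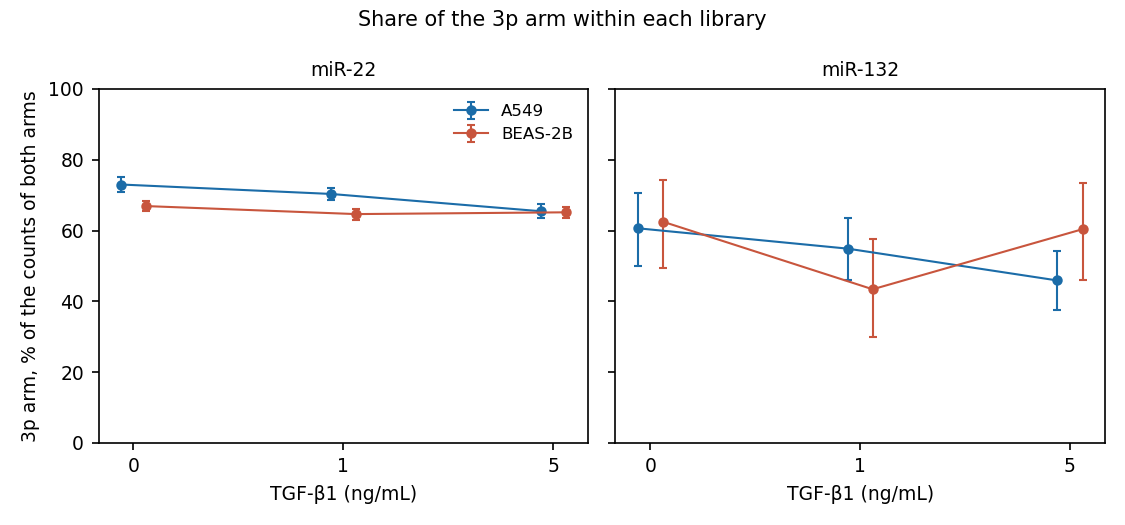
Share of the 3p arm in the reads of both arms (y axis, percent) for miR-22 and miR-132 against TGF-β1 dose, with 1 library per point and exact 95% binomial intervals. In A549 cells the share goes from 73.0% to 65.5% for miR-22 and from 60.6% to 45.9% for miR-132 between 0 and 5 ng/mL, and in BEAS-2B cells it lies between 64.6% and 66.9% for miR-22 and between 43.4% and 62.5% for miR-132.

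The contrast between the hairpins was also compared without scaling. Between the untreated lines, the log2 odds ratio of hsa-miR-22-3p to hsa-miR-132-3p (A549 to BEAS-2B) was -1.68 (-2.31 to -1.06), and that of hsa-miR-22-5p to hsa-miR-132-5p was -2.21 (-3.03 to -1.41). The balance between the neighbouring loci thus differed between the lines beyond counting error. For treated against untreated cells, each of these intervals included 0 in both lines and at both doses. At 5 ng/mL in A549 cells this odds ratio on the log2 scale was 0.08 (-0.47 to 0.62) for the 3p arms and -0.27 (-0.90 to 0.33) for the 5p arms, and in BEAS-2B cells it was 0.25 (-0.46 to 0.98) and 0.24 (-0.68 to 1.16). Between 5 and 1 ng/mL in A549 cells it was -0.61 (-1.14 to -0.09) for the 5p arms. The intervals are wide and do not show that miR-22 and miR-132 responded alike.

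The doses were compared directly as well. Between 5 and 1 ng/mL, no member passed the criteria in either line, and only the arms of miR-22 met the ND criterion. Among all miRNAs that met it, 16.9% of 130 passed in A549 cells (either direction) and 6.61% of 121 in the BEAS-2B line. With so few arms compared, the absence of a passing member is not set apart from these shares. hsa-miR-22-3p had a log2 ratio of -0.33 (-0.42 to -0.24) in A549 cells, which ran from -0.54 to -0.035 under the alternatives and was within counting error with total-count scaling. Both arms had small values in BEAS-2B cells, -0.08 (-0.16 to -0.0027) for hsa-miR-22-3p and -0.11 (-0.22 to -0.0054) for hsa-miR-22-5p, the signs of which flipped under 2 of 10 alternatives.

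Over the 6 libraries, the ND of each arm of miR-22 was most like that of hsa-miR-100-5p among the 156 other miRNAs that reached an ND of 8 in at least 1 library, with a Pearson's r of 0.97 for both arms. The arms themselves came next to each other (r = 0.97). The third was hsa-miR-200b-3p (r = 0.89) for hsa-miR-22-3p and hsa-miR-130b-5p (r = 0.91) for hsa-miR-22-5p. These are 6 points from 2 cell lines that share the same library scaling, and the difference between the lines contributes to each value.

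In the first 11 Mb of chromosome 17, 19 other listed mature miRNAs were counted, of which 10 had any read. Only hsa-miR-4521 reached an ND of 8, and the other 18 had at most 22 reads in a library. hsa-miR-4521 had counts of 471, 249 and 211 at 0, 1 and 5 ng/mL in A549 cells and of 335, 345 and 485 in the BEAS-2B line. In A549 cells it had log2 ratios of -0.97 and -0.99 at the lower and higher dose, against 0.63 and 0.88 in the BEAS-2B line, past the criteria each time, with TMM. Under 8 other scalings the A549 values lay between -1.24 and -0.92 at 1 ng/mL and between -1.36 and -0.84 at 5 ng/mL. The BEAS-2B values fell as low as 0.04 and 0.47, both short of 1.4-fold. Its A549 values thus had the opposite sign to those of miR-22.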

How the data were processed

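Small RNA libraries were made for the study from total RNA of each culture with a small RNA kit for Illumina sequencing. The paper names only an mRNA kit and states that a company did the sequencing. The deposited values were raw counts of reads per mature miRNA. The submitters' processing notes name Bowtie2 and bedtools without versions; the genome build, miRNA release and handling of strand are not given in the sources used here. Groups followed the sample titles. edgeR 4.0.16 (R 4.3.3) gave TMM factors over all 6 libraries, each count was rescaled to the mean effective library size of 749498, and a pseudocount of 1 was added before log2. Ratio intervals were exact conditional binomial (Clopper-Pearson) intervals, those of levels exact Poisson, and those of odds ratios exact conditional, with scipy 1.17.1, numpy 2.4.6 and pandas 2.3.3 in Python 3.11.15. Intervals cover counting error only and treat each read as a separate molecule. Reads carried no stated molecular identifiers, so amplified copies may be counted as separate reads and the intervals may be too narrow. No p-value was computed because each group had 1 library. Members, lists and criteria were chosen with earlier results of these data known. The naming rule covered the members, miRNAs that share a 3p seed, miRNAs in the first 11 Mb of chromosome 17 and, for each member with an ND of at least 8, the 3 miRNAs most correlated with it. Sequences came from RefSeq, in which 2281 of the 2588 names matched. Alternatives were DESeq2 1.42.0 size factors, other scalings, pseudocounts, thresholds and filters. The intervals and calls were tried on simulated Poisson counts with the library factors held fixed. Such counts hold no variation between cultures or from amplification, and TMM was not estimated again on them.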

Additional observations from a re-analysis of the deposited data

Results flagged for a closer look

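hsa-miR-4521, the only other miRNA with an ND of at least 8 in the first 11 Mb of chromosome 17, had lower values in both treated A549 libraries and higher values in both treated BEAS-2B libraries. The log2 ratio at 5 ng/mL in A549 cells minus that in BEAS-2B cells was -1.88. The BEAS-2B values depended on the scaling, with log2 ratios as low as 0.04 at 1 ng/mL and 0.47 at 5 ng/mL under 8 other scalings, against 0.63 and 0.88 with TMM. The difference between the lines was not tested. Outlying libraries were not sought because each group had 1 library.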

How the results depend on the processing

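No paired analysis was possible because each group had 1 library and the labels number none. For the same reason no replicate was left out, and no fit was run with A549 and BEAS-2B as a pair. Total-count scaling without hsa-miR-21-5p was added after the data were seen. Depth limits the arms of miR-132 and miR-212 most.

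The 1 value past the criteria that changed sign was that of hsa-miR-22-5p in BEAS-2B cells at 1 ng/mL, at -0.081 without scaling. The number of members past the criteria at 1 ng/mL in the BEAS-2B line was 1 with TMM and 0 with DESeq2 size factors, total-count scaling, no scaling, TMM on miRNAs with a mean count of at least 1 or 10, or a fold threshold of 2. In A549 cells at 5 ng/mL it was 2 with total-count scaling and 0 at a fold threshold of 2, against 1, and at 1 ng/mL it was 0 at a fold threshold of 2, against 2. It was 1 without scaling for A549 cells at 5 against 1 ng/mL, 1 at a fold threshold of 2 between the untreated lines, and 1 without hsa-miR-21-5p in the total for BEAS-2B cells at 5 ng/mL. With TMM only the arms of miR-22 met the ND criterion, so these counts rest on 2 miRNAs. The counts of all miRNAs, given next, moved as well.

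For all miRNAs past the criteria, TMM gave 75 of 141 (53.2%) and 67 of 137 (48.9%) for the A549 line (5 and 1 ng/mL). For the BEAS-2B line it gave 45 of 125 (36.0%) and 35 of 120 (29.2%). It gave 22 of 130 (16.9%) and 8 of 121 (6.61%) between the doses and 93 of 135 (68.9%) between the untreated lines. A change of the fold threshold leaves the numbers compared as they are, and for the other settings they are not given here. Total-count scaling gave 79 and 70 in BEAS-2B cells and 40 between the doses in A549 cells. No scaling gave 74 and 88 in BEAS-2B cells and 20 between their doses. TMM on miRNAs with a mean count of at least 10 gave 70 in BEAS-2B cells at 5 ng/mL. An ND threshold of 7 gave 40 and 16 between the doses, and one of 9 gave 26 and 23 in BEAS-2B cells and 2 between their doses. The ND criterion on both libraries gave 41 and 44 in A549 cells, 29 in BEAS-2B cells at 5 ng/mL, 3 between their doses and 58 between the lines. A fold threshold of 2 gave 42 and 21 for the A549 line, 15 and 13 for the BEAS-2B line, 0 and 2 between the doses and 55 between the lines. Without hsa-miR-21-5p in the total, 55 passed in BEAS-2B cells at 1 ng/mL, and 42 and 27 between the doses. Stricter thresholds give fewer by construction, and the cause of the other moves was not tested. Of 180 counts of members or of all miRNAs under the alternatives fixed at the outset, 145 stayed within 1.5 times, and of 322 values of single miRNAs and arm shares, 280 stayed within their counting interval. All values that left it were ratios or arm shares of miR-22. The intervals of miR-132 and miR-212 are so wide that staying inside them shows little. Some alternatives could hardly move a value of miR-22 either. TMM within each cell line left the BEAS-2B ratios as they were. A pseudocount of 10 took the log2 ratio of hsa-miR-22-3p in A549 cells at 5 ng/mL from 0.469 to 0.467. Arm shares were compared with the sum over the libraries of the line, which includes the library itself.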
